A study of Physcomitrium patens with 21 samples.

Results

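In gametophores of the moss Physcomitrium patens, 32926 gene models were counted. Of these, 31 stood above their starting level at every time sampled after decapitation and stayed within a set limit between auxin and mock. They were picked from 7 group means by 3 conditions. Levels were read pairs per 1000000 counted pairs of the library (CPM), and a difference between groups was taken as log2(mean CPM + 1) of the group minus log2(mean CPM + 1) of its control. A member had a mean of at least 5 CPM in some group of the decapitation series, a difference from 0 h of at least 0.5 at each of 2, 6, 12 and 24 h, and a difference between IAA and mock below 1 in size. Because these values chose the members, the comparisons with 0 h and of IAA with mock are given as descriptions and without a test. The comparisons among 2, 6, 12 and 24 h were not conditions of the choice, although the same libraries entered it, and these were tested. The choice set a lower limit on the difference from 0 h at each of these times. The members' shares called, beside those of all genes, are therefore not independent of the choice.

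All plants were wild type of the Gransden strain. The decapitation series had 5 groups of 3 libraries from gametophore stems. They were collected at 0, 2, 6, 12 and 24 h after decapitation, with 0 h as the control. Each of these libraries pooled 5 to 10 gametophores from 4-week-old colonies. The auxin experiment had 2 groups of 3 libraries. Gametophores were treated for 30 min with 10 µM indole-3-acetic acid (IAA, the main natural auxin) or given the solvent alone for 30 min (mock). No colony age or number of pooled gametophores is given for these libraries. The study describes the 3 libraries of a group as biological replicates. At 24 h the submitters added a tag for biotic stress that the other groups lack, with nothing more said of it. Growth of all plants was at 23 °C with 16 h of light and 8 h of dark. Hours of the day are not given in the labels, so the time since decapitation and the time of day cannot be told apart.

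The gametophore is the leafy shoot of a moss and grows from a single apical cell at its tip. In Physcomitrium patens, auxin from the shoot apex holds back the formation of side branches, and removal of the tip releases them. Moss cells next to a wound can also return to a stem cell state. The members are known here only by identifier, because 0 of the 32926 could be found among the genes that RefSeq lists for assembly ASM5946719v1. No function, chromosome position or sequence is therefore given for any of them.

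Expressed genes below are the 16570 whose mean reached 5 CPM in some group of the decapitation series. Library depth ran from 18995348 to 32039288 counted read pairs, with the third library of 24 h the deepest. All 31 members passed the filter on low counts in both experiments, and their lowest count in any library ran from 4 to 1919 pairs with a median of 181. Among members, the third library of 12 h was the highest of its group for 24 of 31 (77.4%, against 37.6% of expressed genes). The first library of 24 h was the lowest of its group for 20 of 31 (64.5%, against 30.0%). Values of 12 h and 24 h that rest on these libraries are also given below without them, with the members held as chosen. Other libraries stood apart as well. The first library was lowest for 48.4% of members at 2 h (36.0% of expressed genes) and 51.6% at 6 h (31.6%). It was also lowest for 54.8% at 12 h (33.5%), 61.3% in mock (45.1%) and 51.6% in IAA (39.7%). At 0 h the share was 32.3% (39.5%). The second library was highest for 51.6% at 6 h (29.9%) and 61.3% in mock (31.1%). The cause was not tested, and descriptive values are not given without these.

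Of the 16570 expressed genes, 683 reached the difference of 0.5 at 2 h, and 480 of these did so again at 6 h. At 12 h, 337 of those were still at or above it, but at 24 h only 38. The condition on IAA then removed 7 and left the 31 members, 0.187% of expressed genes. Taken alone, 2 h put 4.12% of expressed genes past the threshold, 6 h 8.86%, 12 h 11.4% and 24 h 3.30%. The members just inside the threshold were Pp3c13_12000V3.1, with a smallest difference of 0.509, and Pp3c1_6640V3.1, with 0.518. Just outside it were Pp3c15_6350V3.1, with 0.497, and Pp3c6_14200V3.1, with 0.494. The number of members depended on the settings of the choice. It was 18 with a pseudocount of 5 CPM, 64 with a threshold of 0.4 and 18 with a threshold of 0.6.

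Against 0 h, the members were higher by a median difference of 0.82 at 2 h (range 0.51 to 2.14), 1.02 at 6 h (0.52 to 4.13), 1.30 at 12 h (0.64 to 4.76) and 0.73 at 24 h (0.52 to 2.39). Over all expressed genes, the medians were 0.06, 0.09, 0.11 and -0.06. In bulk RNA of this kind, a change in the share of cells that hold a transcript and a change in its amount per cell cannot be told apart. For 21 of the 31 the highest group was 12 h, for 7 it was 6 h, for 2 it was 24 h and for 1 it was 2 h. The lowest of the later groups was 24 h for 15 members, 2 h for 12 and 6 h for 4. A difference of at least 1, which is a doubling on this scale, was reached by 10, 16, 24 and 5 members at the 4 times in turn. Without the third library of 12 h, the median at 12 h was 1.18, and 19 members reached a difference of 1 there. Without the first library of 24 h, the median at 24 h was 0.77, and 8 members reached it. The number of members highest at 12 h was 18 when one or the other of these libraries was left out and 17 without both, and the number highest at 24 h was 4 without the former, 5 without the latter and 5 without both.

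**Figure D1:**
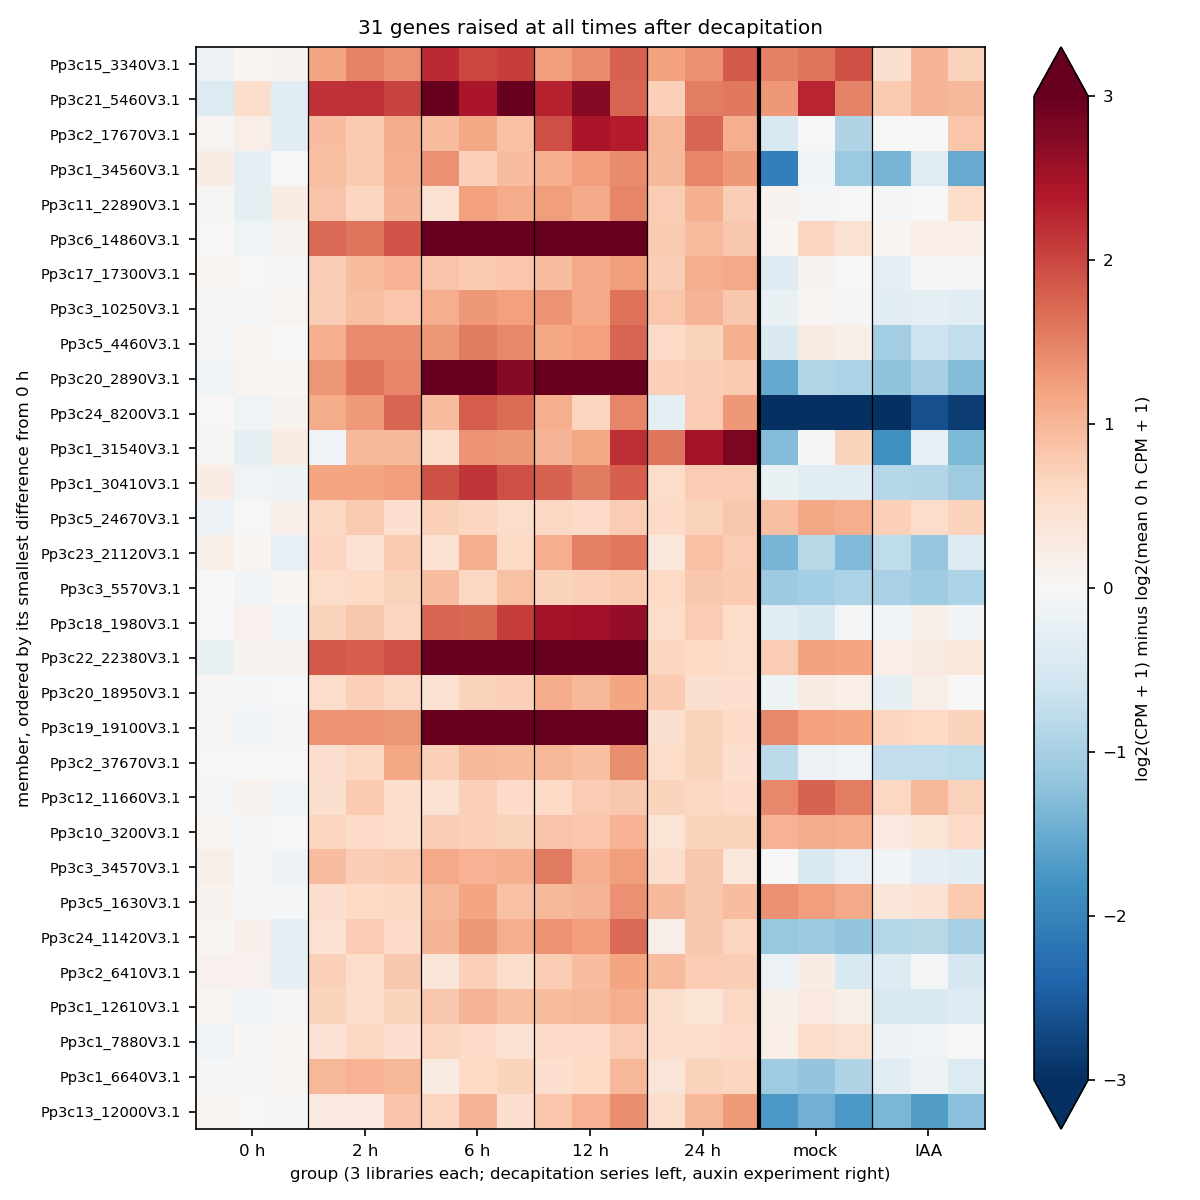
Heat map of the 31 members (vertical axis, ordered by their smallest difference from 0 h) in all 21 libraries (horizontal axis, 3 per group), coloured by log2(CPM + 1) minus log2(mean 0 h CPM + 1), with colours saturated at -3 and 3. Nearly all cells of 2 to 24 h are red, and 4 members with the deepest colour at 6 and 12 h are pale at 24 h, while mock and IAA on the right hold both red and blue members.

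Because the members were picked for means above 0 h, separation library by library follows largely from the choice. In 29 of 31, all 12 libraries of 2 to 24 h lay above all 3 of 0 h. The share among expressed genes was 4.44%, and nothing is read from the difference. The exceptions, Pp3c24_8200V3.1 and Pp3c1_31540V3.1, each had 11 of 12 libraries above.

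At 0 h the members covered a wide span of levels. Their mean at 0 h ran from 1.06 to 99.9 CPM with a median of 16.6, against a median of 29.3 over expressed genes. Per kilobase of gene model, the median was 7.31 CPM at 0 h and 21.3 CPM at 12 h, where it ran from 3.19 to 485. The coefficient of variation at 0 h had a median of 8.09% and reached 61.2% in Pp3c21_5460V3.1, which had 1.04, 2.92 and 1.17 CPM. The gene models were 945 to 4535 bases long with a median of 2275 bases, close to the 2351 bases of expressed genes.

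Summed over the 31 members, the level was 793 CPM ± 26.3 at 0 h, and at the later times in turn it was 1754 ± 127.5, 3166 ± 131, 3417 ± 253 and 1525 ± 219 (SD, n = 3 each). Most of the rise and fall of that sum came from 4 genes. Pp3c6_14860V3.1, Pp3c19_19100V3.1, Pp3c22_22380V3.1 and Pp3c20_2890V3.1 were those whose difference from 0 h varied by at least 2 over the later times, a grouping made after their values were seen. Together they held 163 CPM ± 9.89 at 0 h and then 518 ± 33.4, 1723 ± 30.7, 1933 ± 63.5 and 278 ± 15.8. The other 27 members held 630.3 CPM ± 17.1 at 0 h and then 1236 ± 104, 1443 ± 102, 1484 ± 239 and 1247 ± 211 (SD, n = 3 each). Because the 4 were taken out for their variation over these times, a flatter sum in the remainder follows from the grouping. The sum over all 31 was 3276 CPM at 12 h without the third library of that time and 1649 CPM at 24 h without the first.

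The highest levels after decapitation belonged to Pp3c6_14860V3.1 and Pp3c19_19100V3.1. Pp3c6_14860V3.1 had 99.7, 91.9 and 108 CPM at 0 h, 329, 308 and 372 CPM at 2 h, 1023, 1017 and 1006 CPM at 6 h, 878, 994 and 959 CPM at 12 h, and 172, 193 and 175 CPM at 24 h. Its 6 h and 12 h libraries stood far above the rest, and those of 24 h lay below those of 2 h but above those of 0 h. Pp3c19_19100V3.1 had 44.0, 40.6 and 44.0 CPM at 0 h, 110.0, 111 and 109.7 CPM at 2 h, 360.3, 415 and 416 CPM at 6 h, 471, 441 and 464 CPM at 12 h, and 60.4, 69.9 and 64.5 CPM at 24 h. The order of its groups was the same except that all 12 h libraries were above those of 6 h. Per kilobase, the shorter Pp3c19_19100V3.1 (945 bases) reached a mean of 485 CPM at 12 h, above the 278 CPM that Pp3c6_14860V3.1 (3646 bases) reached at 6 h.

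Between 2 h and 6 h, 12 members rose and 1 fell. In the same comparison 12.8% of all genes tested were called higher and 13.2% lower, and the members' shares were 38.7% and 3.23%. The median log2 fold change was 0.18 for the members and 0.01 for all genes. The largest rise was that of Pp3c22_22380V3.1, from 48.9, 47.7 and 52.2 CPM at 2 h to 239, 253 and 245 CPM at 6 h, with no overlap. Its log2 fold change was 2.29 ± 0.067 (SE, n = 3 each; Benjamini-Hochberg adjusted p in edgeR = 1.3e-11). For Pp3c19_19100V3.1 the rise was 3.55-fold, a log2 fold change of 1.83 ± 0.066 (SE; Benjamini-Hochberg adjusted p in edgeR = 6.7e-11).

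The member that fell from 2 h to 6 h was Pp3c1_6640V3.1, which was also the one member with its highest group mean at 2 h. It had 63.8, 65.4 and 71.4 CPM at 0 h, 135, 139 and 135 CPM at 2 h, and 80.6, 102 and 106 CPM at 6 h. The libraries of 2 h lay above those of 6 h, and those of 6 h above those of 0 h. The log2 fold change from 2 h to 6 h was -0.52 ± 0.12 (SE; Benjamini-Hochberg adjusted p in edgeR = 0.0053).

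Between 6 h and 12 h, 8 members rose (25.8%, against 16.8% of all genes tested) and 3 fell (9.68%, against 21.2%). The median log2 fold change was 0.17 in the members and -0.03 in all genes. Pp3c2_17670V3.1, which started at 1.28, 1.48 and 0.705 CPM at 0 h, had 3.16, 3.80 and 2.94 CPM at 6 h and 7.26, 10.8 and 10.0 CPM at 12 h, with no overlap. Its log2 fold change was 1.47 ± 0.23 (SE; Benjamini-Hochberg adjusted p in edgeR = 0.00019). Pp3c20_2890V3.1 rose from 71.1, 69.6 and 53.4 CPM to 148, 167 and 142 CPM, again with no overlap and with a log2 fold change of 1.198 ± 0.096 (SE; Benjamini-Hochberg adjusted p in edgeR = 3.4e-07). Without the first library of 6 h, 5 members were called higher in place of 8.

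The members that fell from 6 h to 12 h were Pp3c15_3340V3.1, Pp3c1_30410V3.1 and Pp3c21_5460V3.1. Pp3c15_3340V3.1 went from 112, 94.8 and 100.3 CPM to 55.9, 63.2 and 80.8 CPM, with no overlap, and its log2 fold change was -0.66 ± 0.15 (SE; Benjamini-Hochberg adjusted p in edgeR = 0.0035). Pp3c1_30410V3.1 went from 118, 137 and 119 CPM to 107, 91.8 and 109 CPM. Its libraries did not overlap either, and its log2 fold change was -0.32 ± 0.096 (SE; Benjamini-Hochberg adjusted p in edgeR = 0.015). That call was lost without the second library of 6 h, at -0.25 (edgeR, adjusted p = 0.0726), and without the second library of 12 h, at -0.25 (edgeR, adjusted p = 0.0719). Pp3c21_5460V3.1, named because the count was small, had overlapping libraries and a log2 fold change of -0.90 ± 0.32 (SE; Benjamini-Hochberg adjusted p in edgeR = 0.036). That call was lost with DESeq2 (adjusted p = 0.121), with only the compared libraries in the edgeR fit (adjusted p = 0.0636) and with single-read counts (edgeR, adjusted p = 0.0538). It was also lost without the first or the third library of 6 h (edgeR, adjusted p = 0.162 and 0.0855) and without the first or the third library of 12 h (edgeR, adjusted p = 0.0853 and 0.138). Under the other settings of the fit the log2 fold change ran from -0.93 to -0.86, and with 1 library left out from -1.18 to -0.63.

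**Figure D2:**
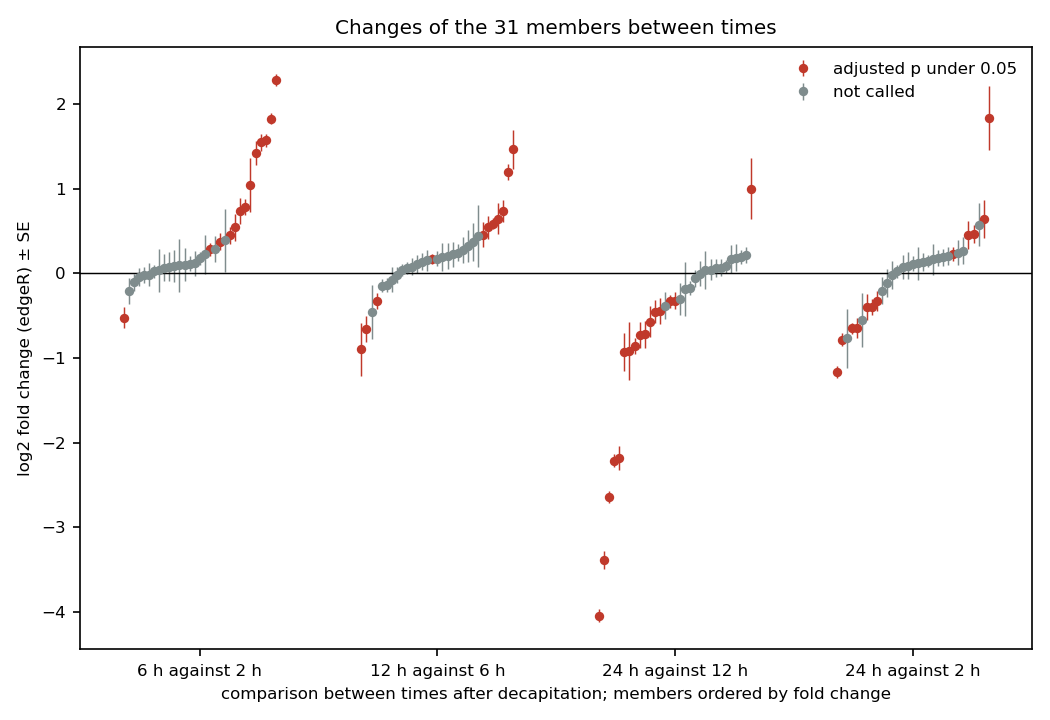
Log2 fold changes with standard errors from edgeR (vertical axis) of the 31 members in the 4 comparisons between times (horizontal axis, members ordered by fold change within each), in red where the adjusted p was under 0.05. From 12 h to 24 h, 15 members fell and 1 rose, and the lowest point, at -4.04, is Pp3c22_22380V3.1.

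From 12 h to 24 h the direction turned. In this step 15 members fell (48.4%, against 21.6% of all genes tested) and 1 rose (3.23%, against 24%), with a median log2 fold change of -0.32 in the members and -0.01 in all genes. The members that fell had been a median of 1.72 above 0 h at 12 h and were 0.67 above it at 24 h. Without the third library of 12 h 12 members fell, with a median log2 fold change over all members of -0.20, and without the first library of 24 h 11 did, with a median of -0.28. In one or both of the earlier steps 16 members had risen (51.6%, against 27.8% of all genes tested). Of these, 13 fell in this one (81.2%). Among all genes tested, 5639 had risen in those steps and 2373 of them fell in this one (42.1%). The steps share the 12 h libraries, so a rise that ends there favours a fall from there by construction. Without the third library of 12 h, 11 of 15 fell, and without the first library of 24 h, 10 of 17. Over all members, the difference from 0 h at 24 h was a median of 63.6% of that at 12 h, and it was as large or larger at 24 h in 4. That median was 68.5% and the number 7 without the third library of 12 h, 67.0% and 7 without the first of 24 h, and 74.2% and 9 without both.

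Pp3c22_22380V3.1 fell most between 12 h and 24 h, from 369, 391 and 377 CPM to 21.1, 20.4 and 19.6 CPM. The libraries of 24 h were still above the 11.0, 14.0 and 14.1 CPM of 0 h. The log2 fold change was -4.04 ± 0.073 (SE; Benjamini-Hochberg adjusted p in edgeR = 5.9e-15), which is 16.5-fold. Pp3c20_2890V3.1 fell 10.5-fold, from the 12 h values above to 12.4, 12.8 and 13.3 CPM, with 6.49, 7.66 and 7.56 CPM at 0 h. Here too all libraries of 24 h were between those of 0 h and those of 12 h, and the log2 fold change was -3.39 ± 0.11 (SE; Benjamini-Hochberg adjusted p in edgeR = 2.6e-12).

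The single member that rose from 12 h to 24 h was Pp3c1_31540V3.1, which is named because the count was 1. It had 34.3, 26.8 and 38.7 CPM at 0 h, 30.9, 66.7 and 66.1 CPM at 2 h, 48.1, 86.4 and 83.4 CPM at 6 h, 68.7, 75.5 and 159 CPM at 12 h, and 103, 192 and 240.3 CPM at 24 h. Its first library of 2 h lay among those of 0 h, and the groups of 12 h and 24 h overlapped. The log2 fold change from 12 h to 24 h was 1.00 ± 0.36 (SE; Benjamini-Hochberg adjusted p in edgeR = 0.034). That call was lost with all 21 libraries in the edgeR fit, at 0.99 (adjusted p = 0.0807), and with only the compared libraries, also at 0.99 (adjusted p = 0.0571), and the number of members that rose was then 0. The number was 2 with the replicate number as a block, with RLE size factors and with DESeq2. It was again 0, with the call of Pp3c1_31540V3.1 lost, without the first or the second library of 12 h, 0 without the second or the third library of 24 h, and 3 without the first library of 24 h. It was 2 without the third library of 0 h, the second of 6 h or the third of 12 h.

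Set against 2 h, the last time had 5 members higher (16.1%, against 22.4% of all genes tested) and 7 lower (22.6%, against 21.7%). These shares were near the background. Pp3c1_31540V3.1 had a log2 fold change of 1.84 ± 0.38 from 2 h to 24 h (SE; Benjamini-Hochberg adjusted p in edgeR = 0.00098), with all libraries of 24 h above those of 2 h. Pp3c5_1630V3.1 went from 17.7, 18.8 and 19.2 CPM at 2 h to 24.9, 22.3 and 23.9 CPM at 24 h, with 13.2, 11.6 and 11.7 CPM at 0 h. The 3 groups did not overlap, and the log2 fold change from 2 h to 24 h was 0.47 ± 0.11 (SE; Benjamini-Hochberg adjusted p in edgeR = 0.0022). Among the members that were lower, Pp3c22_22380V3.1 had a log2 fold change of -1.17 ± 0.070 (SE; Benjamini-Hochberg adjusted p in edgeR = 5.3e-09). For Pp3c6_14860V3.1 it was -0.78 ± 0.075 (SE; Benjamini-Hochberg adjusted p in edgeR = 6.7e-07). The count of members higher was 2 without the first library of 2 h, the second of 24 h or the third of 24 h, and 3 without the second library of 2 h.

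**Figure D3:**
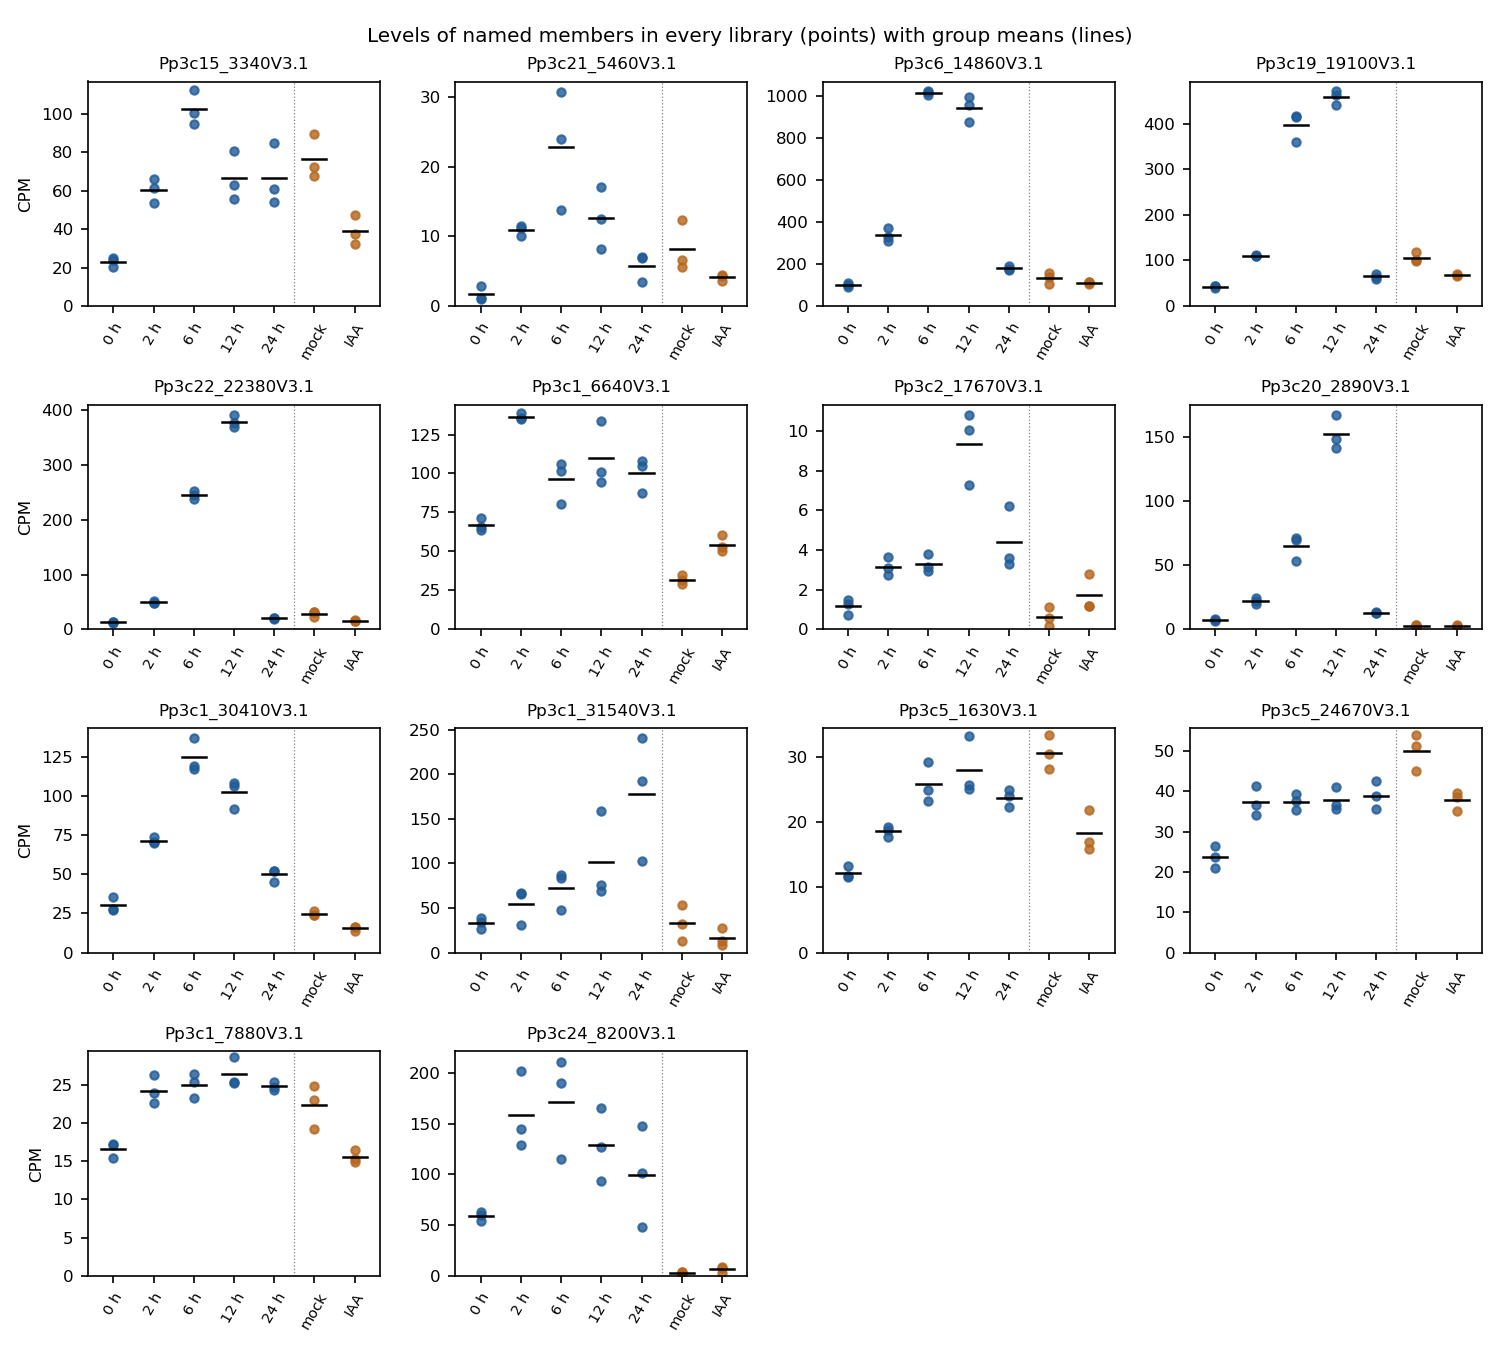
CPM (vertical axis, from 0, with its own scale in each panel) of 14 named members in every library (points) with group means (lines), for the decapitation series in blue and the auxin experiment in orange. Pp3c22_22380V3.1, Pp3c20_2890V3.1, Pp3c19_19100V3.1 and Pp3c6_14860V3.1 peak at 6 or 12 h, Pp3c5_24670V3.1 and Pp3c1_7880V3.1 keep nearly one level from 2 to 24 h, and Pp3c1_31540V3.1 is highest at 24 h.

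A joint test of any change among 2, 6, 12 and 24 h called 21 of the 31 members (edgeR, Benjamini-Hochberg adjusted p under 0.05), a share close to the 68.8% of all genes tested that were called. The 10 that were not called differed from 0 h by medians of 0.72, 0.82, 1.11 and 0.74 at the 4 times. Missing the threshold does not show that they held one level, and 3 of the 10 were called higher at 24 h than at 2 h. Over single steps, 10 members rose from 2 h to 6 h and fell from 12 h to 24 h (32.3%, against 9.19% of all genes tested). In 4 of them a rise from 6 h to 12 h lay between (12.9%, against 1.41%). The counts were 9 and 3 without the third library of 12 h, and 8 and 4 without the first library of 24 h. The choice set a lower limit at each of these times. The distance of the shares above from those of all genes is thus a description and was not tested. Another 11 members were called in no successive step (35.5%, against 34.5%), a share near the background.

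The flattest courses among the members were those of Pp3c5_24670V3.1 and Pp3c1_7880V3.1. They were picked for the smallest range over the 4 later times. That neither was called between 2 h and 24 h follows largely from this pick. Pp3c5_24670V3.1 had 20.9, 23.7 and 26.5 CPM at 0 h, 36.6, 41.3 and 34.0 CPM at 2 h, 39.4, 37.6 and 35.3 CPM at 6 h, 36.7, 35.7 and 41.0 CPM at 12 h, and 35.5, 38.7 and 42.5 CPM at 24 h. The 4 later groups overlapped throughout and all lay above 0 h, with differences from 0 h between 0.63 and 0.69. In the auxin experiment this gene had 45.0, 54.0 and 51.3 CPM in mock, above all its libraries of 2 to 24 h. In IAA it had 39.7, 35.1 and 38.7 CPM. From 2 h to 24 h its log2 fold change was 0.19 ± 0.094 (SE; Benjamini-Hochberg adjusted p in edgeR = 0.127). Pp3c1_7880V3.1 had group means of 16.6 CPM ± 1.02 at 0 h and then 24.2 ± 1.83, 25.0 ± 1.57, 26.4 ± 1.94 and 24.8 ± 0.524 (SD, n = 3 each). Its log2 fold change from 2 h to 24 h was 0.15 ± 0.073 (SE; Benjamini-Hochberg adjusted p in edgeR = 0.106).

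The members with the largest smallest difference from 0 h were Pp3c15_3340V3.1, at 1.36, and Pp3c21_5460V3.1, at 1.33. On this scale, with 1 CPM added before the log, they alone reached 1 at all 4 times. By the plain ratio of means, Pp3c2_17670V3.1 and Pp3c18_1980V3.1 were also more than doubled at each time, from 1.16 and 1.06 CPM at 0 h. Their ratios to 0 h were 2.73, 2.85, 8.10 and 3.80, and 2.235, 6.08, 10.4 and 2.05. Pp3c15_3340V3.1 had 20.3, 23.8 and 24.8 CPM at 0 h, 53.8, 66.3 and 61.3 CPM at 2 h, and 54.2, 61.0 and 84.7 CPM at 24 h. After the peak at 6 h given above, its 12 h and 24 h groups had the same mean of 66.6 CPM, which was 2.90 times that of 0 h. Pp3c21_5460V3.1 had 11.2, 11.5 and 10.1 CPM at 2 h, 30.8, 13.8 and 23.96 CPM at 6 h, 12.5, 17.1 and 8.17 CPM at 12 h, and 3.42, 6.87 and 7.12 CPM at 24 h. All of these were above its 3 libraries of 0 h, although the lowest of 24 h, at 3.42 CPM, was close to the highest of 0 h, at 2.92 CPM.

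Between IAA and mock, the members differed by less than 1 by choice, on the scale with 1 CPM added before the log. The difference IAA minus mock had a median of -0.26 and ran from -0.97 to 0.98, and it was below 0 in 21 of 31 (67.7%, against 64.1% of expressed genes, whose median was -0.12). It was under -0.5 in 11 members (35.5%, against 9.52% of expressed genes) and over 0.5 in 3 (9.68%, against 9.73%), again as a description of values that the choice used.

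At the upper end were Pp3c24_8200V3.1, with a difference of 0.98, and Pp3c1_6640V3.1, with 0.76. Next came Pp3c2_17670V3.1, with 0.75 at means of 0.62 CPM in mock and 1.73 CPM in IAA. The 1 CPM added before the log shrinks differences at such low levels. In edgeR the log2 fold changes were 1.57 ± 0.57 for Pp3c2_17670V3.1 and 1.325 ± 0.53 for Pp3c24_8200V3.1 (SE). Pp3c24_8200V3.1 had 3.45, 0.734 and 3.90 CPM in mock and 2.85, 8.72 and 7.32 CPM in IAA, so the groups overlapped. Pp3c1_6640V3.1 had 31.3, 28.9 and 35.1 CPM in mock and 52.7, 60.2 and 50.3 CPM in IAA, with no overlap. At the lower end were Pp3c1_31540V3.1, with -0.97, and Pp3c15_3340V3.1, with -0.95. Pp3c1_31540V3.1 had 12.9, 32.6 and 53.5 CPM in mock and 8.60, 28.0 and 12.5 in IAA, which overlapped. Pp3c15_3340V3.1 had 67.7, 72.4 and 89.6 CPM in mock and 32.4, 47.2 and 37.6 in IAA, which did not. Leaving out the first mock library put Pp3c24_8200V3.1, Pp3c1_31540V3.1, Pp3c15_3340V3.1 and Pp3c21_5460V3.1 outside the members.

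Mock and 0 h were compared library by library, across the 2 experiments. All 3 mock libraries lay above all 3 of 0 h in 10 members (32.3%, against 33% of expressed genes) and below them in 9 (29.0%, against 33.1%), with overlap in 12. For IAA the counts were 8 above (25.8%, against 24.4%) and 13 below (41.9%, against 44.1%). These shares were near those of expressed genes, so nothing in them is read as particular to the members. The experiments differ in growth protocol, treatment and handling. The cause of a difference between mock and 0 h therefore cannot be told apart from the experiment.

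Single members differed widely between the controls. Pp3c24_8200V3.1 had 59.6, 54.3 and 63.4 CPM at 0 h, far above its mock and IAA libraries. Later it had 129, 145 and 202 CPM at 2 h and 48.0, 102 and 147 CPM at 24 h, the first of which lay below all 3 libraries of 0 h. Its difference of mock from 0 h, -4.03, was the lowest among the members. Pp3c15_3340V3.1 and Pp3c21_5460V3.1 stood at the other end, with mock above 0 h by 1.69 and 1.76. The 3 mock libraries of Pp3c15_3340V3.1 thus lay at the level of its libraries of 2 to 24 h rather than at that of 0 h. The summed level of the 31 members was 866 CPM ± 90.6 in mock and 664 ± 41.8 in IAA (SD, n = 3 each), beside 793 ± 26.3 at 0 h.

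**Figure D4:**
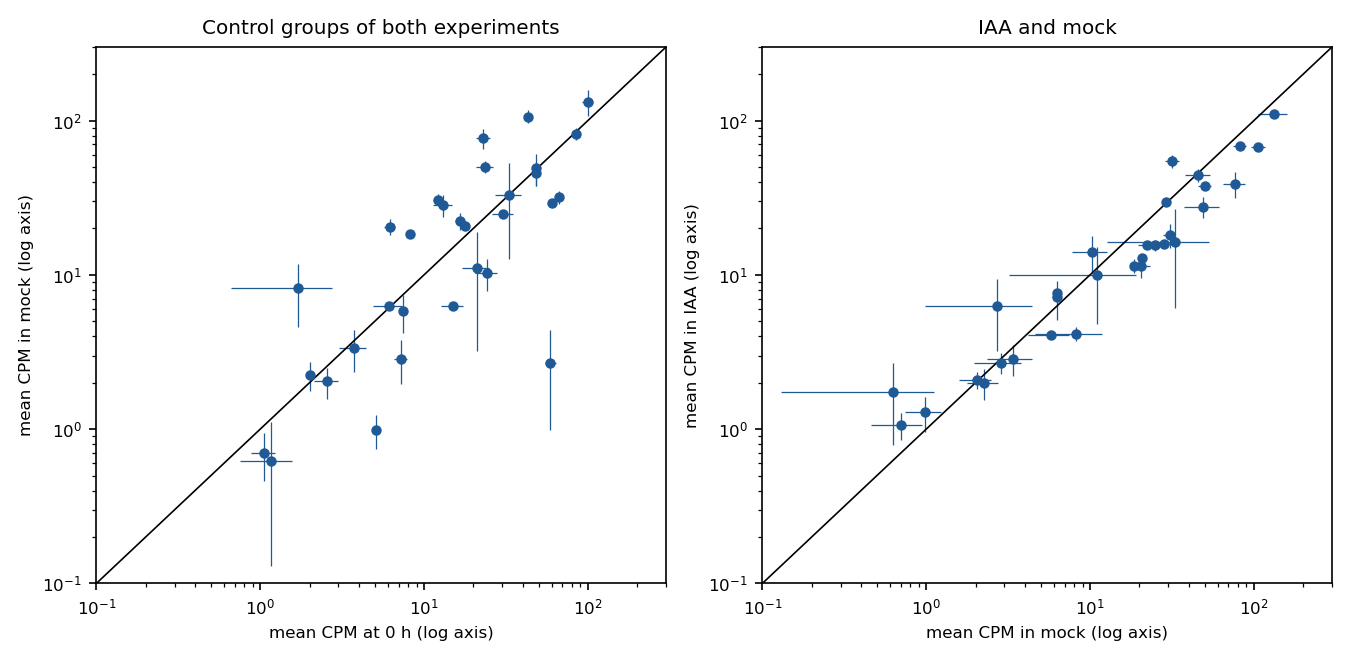
Mean CPM of each member with SD over 3 libraries, on log axes, with mock (vertical) against 0 h (horizontal) on the left and IAA (vertical) against mock (horizontal) on the right. The line marks equal levels, and the point far under it on the left is Pp3c24_8200V3.1, with 59.1 CPM at 0 h and 2.69 CPM in mock.

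The nearest genes by the same rule were the 248 that reached 0.5 at 2, 6 and 12 h but not at 24 h, with the same limit on IAA. The members were 11.1% of the 279 genes that reached it at those 3 times. The 248 had median differences from 0 h of 0.72, 1.22, 0.97 and -0.04 at the 4 times in turn, and 139 of them were below 0 h at 24 h. Their highest group among 2, 6 and 12 h was 6 h in 72.6% and 12 h in 19.0%, while in the members it was 6 h in 22.6% and 12 h in 74.2%. Without the third library of 12 h the members' shares were 32.3% and 64.5%. Their difference IAA minus mock had a median of -0.49 and was below 0 in 83.5%, against -0.26 and 67.7% in the members. Because the rule used all of these values, the contrast is a description and was not tested.

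By identifier the members were spread out. They carried 18 distinct prefixes, the first part of the identifier, and the closest pair of members was 55 gene models apart in identifier order. The commonest prefix among them, Pp3c1, was that of 6 members (19.4%), against 6.61% of expressed genes. Because it is named as the commonest, nothing is read from the difference. The reads in counted pairs amounted to a median of 99.1% of the deposited single-read count of a member (89.2% to 99.5%), close to the 98.9% of expressed genes.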

How the data were processed

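The authors deposited 1 table of counts per library, whole-number counts of read pairs and of single reads per gene model with no normalization. Per the file headers, reads were parsed as pairs, single mates were treated like unmapped reads, and reads with several equally good alignments were dropped, which undercounts genes with near-identical copies. The submitters' processing notes name Bowtie2. The genome build, the annotation and the use of strand in counting are not given in the sources used here.

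Members were chosen on CPM from the deposited pair counts. Members, lists and tests were chosen with earlier results of these data known. In R 4.3.3, edgeR 4.0.16 (filterByExpr, TMM, glmQLFit, glmQLFTest, group as the sole term) was fitted to the 15 decapitation libraries (20269 genes) and apart from them to the 6 auxin libraries (19989 genes). A gene was called at a Benjamini-Hochberg adjusted p below 0.05 over all genes tested. The SE was taken as the absolute log2 fold change over the root of F. Common biological coefficients of variation were 0.0796 and 0.0927 in these fits. No 2 libraries of a group agreed within sampling noise (chi-square per degree of freedom of 3.47 or more).

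Genes named are those with the largest smallest difference from 0 h, the highest CPM, the largest called change per direction and comparison (at most 2, mean of at least 5 CPM, groups not overlapping), the smallest range, the extreme differences IAA minus mock, and those next to the threshold. Annotation lists could not be filled. Titles number the replicates. Deviations of same-numbered libraries of 12 h and 24 h correlated in every pair (r = 0.215, 0.106 and 0.238 across genes), so the blocked count is given for that step. This pairing comes from the data and the shared numbers alone. Differently numbered libraries were not compared, so the r values do not show that the libraries were paired. Alternatives were RLE size factors, other filters, DESeq2 1.42.0, a replicate block, other libraries in the fit, leaving out each library, and other settings of the choice. Single-read counts in the comparisons between times, and the descriptive values and patterns without the third library of 12 h or the first of 24 h, were added after seeing the data.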

Additional observations from a re-analysis of the deposited data

How the results depend on the processing

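The number of members was 31 and moved to 18 with a pseudocount of 5 CPM (16 of them shared), 64 with a threshold of 0.4 and 18 with a threshold of 0.6. It was 27 with TMM-scaled CPM (24 shared). When 1 of the 21 libraries was left out it was 27 to 36, and 18 of the 31 members were kept in all 21 of those cases. From 12 h to 24 h, 1 member was called higher, against 2 with RLE size factors, 2 with the replicate block, 2 with DESeq2, 0 with all 21 libraries in the fit and 0 with only the compared libraries. Leaving out 1 library gave 0 to 3 members higher in that step, 2 to 7 from 2 h to 24 h (5 with all libraries) and 5 to 9 from 6 h to 12 h (8 with all). The cause was not tested. The other counts stayed within 1.5 times. Leaving out 1 library gave 9 to 12 members higher and 1 lower from 2 h to 6 h, 2 to 3 lower from 6 h to 12 h, 11 to 15 lower from 12 h to 24 h, 5 to 8 lower from 2 h to 24 h, and 18 to 24 in the joint test. No direction reversed. With the replicate block the counts higher and lower were 12 and 1, 9 and 3, 2 and 15, and 5 and 7 in the 4 comparisons, and 22 in the joint test. In the other comparisons between times, not every same-numbered pair had an r of its deviations over 0.1. The values were 0.215, 0.076 and 0.269 for 2 h with 24 h, and -0.203 to 0.369 over the rest, so no pairing was taken there. Pairs with 0 h and in the auxin experiment were not examined. Depth limits the weakest members, whose lowest count was 4 pairs.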

Other observations

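Past the limit on IAA were 7 genes that reached 0.5 at all 4 times, 6 of them lower in IAA than in mock and 1 higher. Among the 6, and chosen after their values were seen, 3 have neighbouring identifiers, Pp3c23_6510V3.1, Pp3c23_6580V3.1 and Pp3c23_6600V3.1, 4 gene models and 1 gene model apart in identifier order. Their differences from 0 h at 6 h were 2.36, 3.07 and 2.67, and their differences IAA minus mock were -1.40, -1.19 and -1.09. Pp3c23_6510V3.1 was the most abundant, with 179, 191 and 216 CPM at 0 h, 1155, 1170 and 1264 CPM at 12 h, and 266, 347 and 316 CPM at 24 h. In these genes the reads in counted pairs came to 118.8%, 141.6% and 165.5% of the deposited single-read counts, so that the pair and the single-read columns disagree there by more than in any member (89.2% to 99.5%). The part of this in their values was not tested. The gene that was higher in IAA, Pp3c1_34890V3.1, had 1.22, 0.367 and 1.45 CPM in mock and 5.51, 4.73 and 4.27 CPM in IAA, beside 3.32, 4.07 and 4.27 CPM at 0 h and 21.5, 21.5 and 18.7 CPM at 12 h.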
